A study of Schizosaccharomyces pombe with 16 samples.

Results

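The 7 transcripts described here act at the switch from vegetative growth to sexual differentiation and meiosis in the fission yeast Schizosaccharomyces pombe. They were taken by their systematic IDs from the 7018 transcripts with values, and all 7 had values in every library. Of the 7, 5 encode proteins: ste11 (SPBC32C12.02), mei2 (SPAC27D7.03c), pat1 (SPBC19C2.05, also called ran1), pac2 (SPAC31G5.11) and mei3 (SPBC119.04). The other 2 are non-coding: sme2 (SPNCRNA.103), which gives rise to meiRNA, and omt3 (SPNCRNA.130).

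When nitrogen runs out, the HMG-box transcription factor Ste11 turns on the genes of mating and early meiosis, mei2 among them, and Pac2 acts against ste11 expression. Mei2 is an RNA-binding protein needed to enter meiosis, and together with meiRNA it sequesters Mmi1, the protein that marks meiotic mRNAs for destruction in growing cells. The kinase Pat1 holds Ste11 and Mei2 inactive during growth, and Mei3 is the inhibitor that relieves this block. Zfs1 is a CCCH zinc-finger protein of the family that binds AU-rich elements (AREs) in mRNAs and promotes their decay.

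The zfs1Δ mutant (strain FR434) was compared with the wild type (WT, strain PN4) by RNA-Seq of total RNA in 2 experiments. The genotypes of these strains beyond zfs1 are not given in the sources used here. RNA immunoprecipitation (RIP-Seq) was done in 3 experiments with Zfs1-TAP cells (FR1401, zfs1-TAP::kanMX6, h-) and with mock-control GFP-TAP cells (FR1424, h+, ura4-D18, with GFP-TAP under the nmt1 promoter and ura4+ placed at leu1). An IP and an input of total RNA were sequenced from each extract, so the groups were Zfs1 IP, GFP IP, Zfs1-TAP input and GFP-TAP input. All strains grew exponentially in the minimal medium EMM at 25°C with a nitrogen source, that is, under conditions in which the switch is normally off.

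Values are the authors' normalized read counts, and the 2 assays were normalized separately. Their totals were 42446075 to 47945097 in the RNA-Seq libraries and 8042875 to 72878501 in the RIP-Seq libraries, from which the depth of sequencing cannot be read. The experiment 1 inputs stood apart, with 72.1% (Zfs1-TAP) and 34.7% (GFP-TAP) ribosomal RNA against at most 5.87% in any other library, so results are also given without experiment 1. The zfs1 transcript had 6168 and 5866 normalized counts in the zfs1Δ mutant, against 10098 and 10660 in WT, with 1 value for the whole transcript. In the GFP-TAP strain leu1 had 430.1 to 478 in the inputs, against 5356 to 11183 in those of the Zfs1-TAP strain. The M-cell gene mat1-Mc had 309 to 488 in the 6 Zfs1-TAP libraries and was listed at 0 in the 6 GFP-TAP libraries. It was also listed at 0 in both zfs1Δ libraries and had 0.0563 and 4.74 in WT, so neither RNA-Seq strain expressed this M-cell gene at the Zfs1-TAP level.

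Positions below are those of the RefSeq annotation of assembly ASM294v3, which may differ from the PomBase annotation used for counting. The mei2 transcript lies on the minus strand at chrI:4510983-4515025 with 1733 bases of annotated 5′UTR, and omt3 on the plus strand at chrI:4516070-4517070. The ste11 transcript lies on the plus strand at chrII:3983376-3987400 with a 5′UTR of 2210 bases. The sme2 transcript is on the minus strand at chrII:339346-340907, and mei3 (chrII:719719-720990), pat1 (chrII:1682861-1684555) and pac2 (chrI:3006138-3006845) are on the plus strand. Each of the 7 is annotated with 1 exon, and pac2 is annotated as its coding sequence alone, without UTRs.

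The members differ in their matches to the sequence elements searched. Ste11 binds the TR box, whose core was searched as TTCTTTGTT on both strands in the 1000 bases before each annotated start, and 5.69% of 6656 annotated transcripts had at least 1 such match and 0.47% at least 2. There were 2 before mei2, at 129 and 151 bases, and 1 before ste11, at 118 bases. The mei2 pair also lay before omt3 in the opposite orientation, at 884 and 906 bases, and no other member had a match. The 3 matches are shown 5′ to 3′ on the gene's strand with the core in capitals. Whether they play a part in the zfs1Δ values below was not tested.
mei2, chrI:4515177-4515185, minus strand: gccgaccgatTTCTTTGTTcctattttaa
mei2, chrI:4515155-4515163, minus strand: attttaaagtTTCTTTGTTttacaaaccc
ste11, chrII:3983249-3983257, plus strand: aaagttgaatTTCTTTGTTtgattttcat

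The ARE nonamer TTATTTATT (with U for T in RNA) was not found on the sense strand of any of the 7 annotated transcripts, whereas 10.5% of 6656 transcripts held it. Because pac2 is annotated without UTRs and pat1 without a 5′UTR, each coding sequence was also searched with 1000 bases on either side. In this window 23.5% of 5107 coding genes had a nonamer, and so did pac2, 470 bases past its stop codon, and pat1, 775 bases past its stop codon, but not ste11, mei2 or mei3. Both sites lie past the annotated ends of the transcripts. That of pat1 ends at chrII:1684555 with a 3′UTR of 282 bases, and that of pac2 ends with its coding sequence. Whether longer mRNAs reach these positions was not tested. The shorter TATTTAT, which is part of the nonamer and was searched after the nonamer result was seen, occurred once each in mei2, ste11 and omt3 and in 39.03% of all transcripts. The sites are shown with the motif in capitals, and their part in recovery with the Zfs1 IP was not tested.
pac2, nonamer, chrI:3007315-3007323, plus strand: tttctctttaTTATTTATTtcttttcatg
pat1, nonamer, chrII:1685048-1685056, plus strand: ctaaactttgTTATTTATTatctttacac
ste11, TATTTAT in the coding sequence, chrII:3986615-3986621, plus strand: cactactgcgTATTTATacggccaaga
mei2, TATTTAT in the 5′UTR, chrI:4514280-4514286, minus strand: ttgatacgttTATTTATctaattcatt
omt3, TATTTAT, chrI:4516148-4516154, plus strand: aaaagcgataTATTTATtctattccaa

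Mmi1 recognises the hexamer TNAAAC (with U for T in RNA), and 86.84% of transcripts held at least 1 copy. The sme2 transcript had 9 copies, or 5.76 per kb, a density exceeded by 1.7% of transcripts, against a median of 1.68 per kb over all of them. Its last 7 copies started between positions 1463 and 1556 of a transcript of 1562 nt. The others had 3.93 (mei3), 2.95 (pat1), 2.00 (omt3), 1.99 (ste11), 1.41 (pac2) and 0.495 (mei2) per kb. Of the sme2 copies, 3 from the cluster at the end of the transcript are shown with the hexamer in capitals.
sme2, chrII:339440-339445, minus strand: cttacaatgtTTAAACtttgcgaatg
sme2, chrII:339422-339427, minus strand: tgcgaatgacTGAAACagaaaagaaa
sme2, chrII:339380-339385, minus strand: gaactattgtTGAAACaatattaaaa

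Deletion of zfs1 was accompanied by low levels of ste11, mei2 and omt3 in growing cells, by a moderate rise of pac2 and by no called change of sme2. Of the 6 members tested, 3 fell and 2 rose at an adjusted p under 0.05 (limma after adding 1 to each normalized count and taking log2, with the experiment as a block). Over all 5177 transcripts tested, 13.7% were called lower and 30.9% higher. This balance depended on scaling, with 27.8% lower and 26.3% higher after median centring and 31% lower and 18.9% higher with equal library totals, which moved the median log2 ratio by -0.11. The 7 genes of the M-cell list, of which mat1-Mi and mfm3 were listed at 0 in all 4 libraries, summed to 4613 to 4651 in the zfs1Δ mutant and to 4123 to 4457 in WT. Most of this sum came from mam1 (3018 and 3080 in the zfs1Δ mutant) and mam2 (1579 and 1487). Both were also present in the GFP-TAP inputs, where mat1-Mc was listed at 0, so the sum does not measure M cells. In the zfs1Δ mutant mam1 rose (log2 0.22), while mam2 (-0.07) and mfm2 (-0.39) were not called. The 2 P-cell genes matched of the 4 listed (map2 and map3) summed to 703 to 733 in the zfs1Δ mutant and to 756 to 778 in WT. The 4 genes of nitrogen-starved cells summed to 36195 to 39166 in the zfs1Δ mutant and to 34275 to 36411 in WT. Of the last list, fnx1 and isp7 rose and isp4 and isp6 fell (log2 0.56, 0.42, -1.32 and -0.16), and its part in the results below was not tested. In bulk RNA, fewer cells that express a gene and less RNA per cell cannot be told apart.

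The ste11 transcript had 257 and 229 normalized counts in the zfs1Δ mutant, against 3158 and 3053 in WT. Each zfs1Δ library was below each WT library, and the log2 ratio was -3.61 in experiment 1 and -3.73 in experiment 2, a mean of -3.67 (SE 0.07, n = 2), or 12.7-fold lower in the zfs1Δ mutant. The mei2 transcript had 152 and 157 in the zfs1Δ mutant, against 1973 and 1839 in WT. Its log2 ratios of -3.69 and -3.54 averaged -3.61 (SE 0.08, n = 2), which is 12.2-fold lower. The adjusted p-values of these falls were too small to be represented in the fit with a spread that follows the level, and without that dependence they were 1.27e-18 for ste11 and 1.4e-18 for mei2 (limma). The ste11 ratio minus the mei2 ratio was 0.07 in experiment 1 and -0.19 in experiment 2, so neither gene had the lower ratio in both.

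The non-coding omt3 had 13.7 and 10.02 normalized counts in the zfs1Δ mutant, against 499 and 468 in WT. Its mean log2 ratio of -5.25 (SE 0.17, n = 2, adjusted p = 3.53e-181, limma), or 38.1-fold lower, was the lowest of all 5177 tested, followed by ste11 and then mei2. In the same experiment the omt3 ratio lay 1.40 and 1.87 below the mei2 ratio on the log2 scale. These 3 falls kept their call under all alternatives that gave a test, with highest adjusted p-values of 1.13e-09 (ste11), 8.04e-09 (mei2) and 5.99e-08 (omt3).

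**Figure D1:**
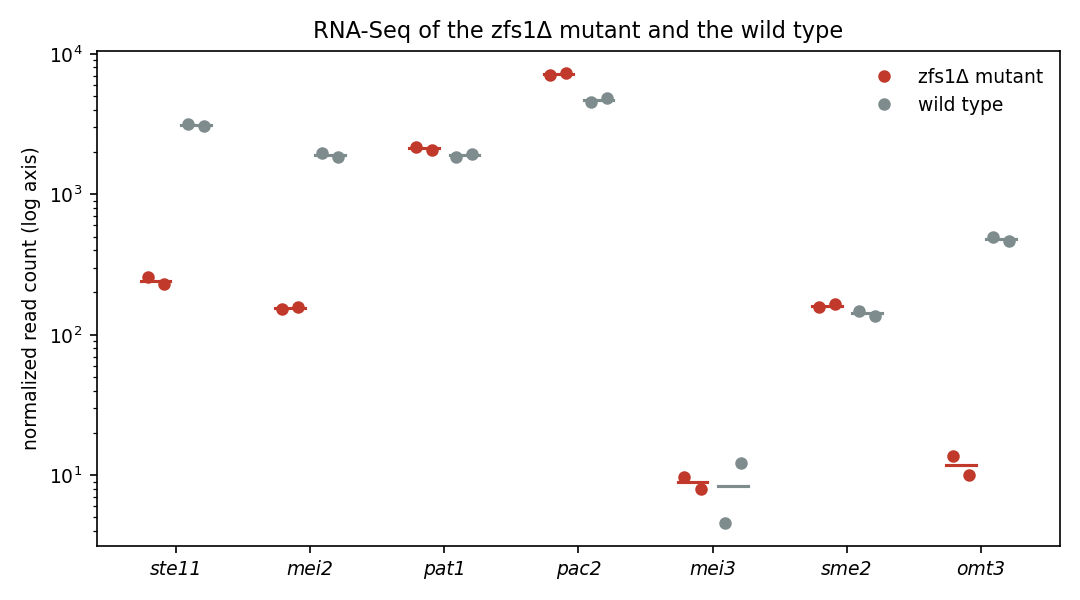
Normalized read counts on a log axis of the 7 genes in the zfs1Δ mutant (red, left) and WT (grey, right), 1 point per library and a line at the mean of 2. The zfs1Δ points of ste11 (229 to 257), mei2 (152 to 157) and omt3 (10.02 to 13.7) lie far below those of WT, those of pac2 lie above, and those of mei3 overlap.

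Since mei2 and omt3 are neighbours, the transcripts around them were examined. Their annotated starts lie on opposite strands and 1045 bases apart, and a non-coding RNA, SPNCRNA.993 (chrI:4515182-4515993), lies between them on the omt3 strand, 156 bases from mei2 and 76 from omt3. SPNCRNA.993 had 12.7 and 8.01 normalized counts in the zfs1Δ mutant, against 60.1 and 52.1 in WT. Both zfs1Δ values were lower, although the transcript was too weak for the filter of 1 CPM (the normalized count scaled to the library total). In the fit without a filter its log2 ratio was -2.36 (SE 0.28, adjusted p = 1.18e-15, limma). On the far side of omt3, 377 bases away on the same strand, omt2 (SPAC27D7.04) had 417 and 439 in the zfs1Δ mutant, against 450.1 and 496 in WT (log2 -0.14, adjusted p = 0.168, limma). The low zfs1Δ values thus spanned mei2, SPNCRNA.993 and omt3 but did not extend to omt2 with a call. The outer TR box core of the mei2 pair, at 151 bases, overlaps the annotated start of SPNCRNA.993, and reads were assigned by strand.

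**Figure D2:**
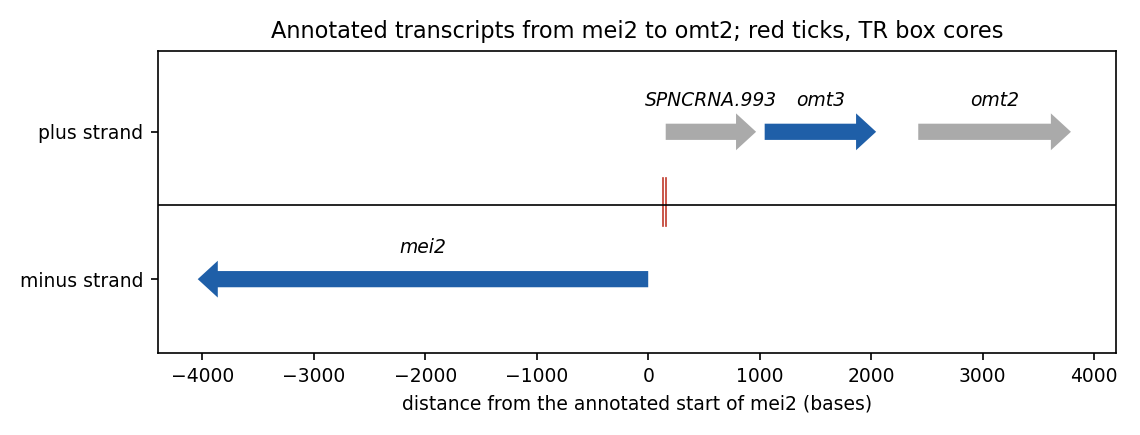
Annotated transcripts between mei2 and omt2 drawn as arrows on their strands, against the distance in bases from the annotated start of mei2, with the 2 members in blue, their neighbours in grey and the TR box cores as red ticks. The 2 cores, at 130 to 160 bases, lie at the start of SPNCRNA.993, while omt3 starts at 1045 bases.

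Of the other members, pac2 rose in the zfs1Δ mutant, and pat1 was called higher by a small amount that depended on scaling. The paper describes the RNA level of pat1 as unaltered in this mutant. The pac2 transcript had 7109 and 7276 normalized counts in the zfs1Δ mutant, against 4526 and 4863 in WT. The groups did not overlap, and pac2 rose by a log2 ratio of 0.62 (SE 0.05, n = 2, adjusted p = 4.35e-30, limma), or 1.53-fold, with 0.51 to 0.62 over the 9 alternatives that gave a test. The pat1 transcript had 2177 and 2064 in the zfs1Δ mutant, against 1851 and 1947 in WT, a log2 ratio of 0.16 (SE 0.06, adjusted p = 0.0149, limma). The pat1 groups did not overlap, but the call was lost with median centring (0.09, adjusted p = 0.0621), with equal totals (0.05, adjusted p = 0.478), with equal totals after removal of ribosomal RNA (0.07, adjusted p = 0.186) and without the trend of spread with level (adjusted p = 0.073).

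The meiRNA gene sme2 had 158 and 164 normalized counts in the zfs1Δ mutant, against 149 and 137 in WT. Its groups did not overlap either, but the log2 ratio of 0.18 was not called (95% interval -0.08 to 0.43, adjusted p = 0.281, limma). The share of all transcripts whose zfs1Δ and WT values did not overlap was not counted. The mei3 transcript had 9.78 and 8.01 in the zfs1Δ mutant, against 4.56 and 12.2 in WT. Its WT values enclosed those of the zfs1Δ mutant, and mei3 was below the filter and not tested. At this level a change of mei3 was not detectable.

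The tested genes within 500 bases of ste11, mei3 and sme2 showed no called change in the zfs1Δ mutant at the deposited scaling. No annotated gene was found within this distance of pat1 or pac2. The kinase gene ppk25, which faces the end of ste11 from 121 bases away on the opposite strand, had 2418 and 2330.3 normalized counts in the zfs1Δ mutant, against 2467 and 2557 in WT (adjusted p = 0.235, limma). The lsb1 gene, 16 bases past mei3 on the opposite strand, had 2458 and 2420.5, against 2647 and 2636 in WT (adjusted p = 0.077). Beside sme2, mrpl8 overlaps it by 212 bases on the same strand, so that reads in the overlap may be split between them, and had 2068 and 2014 in the zfs1Δ mutant, against 2137 and 2051 in WT (adjusted p = 0.639). The antisense SPNCRNA.1342 overlaps sme2 over all of its 542 bases and had 25.4 and 27.0 in the zfs1Δ mutant, against 30.9 and 41.2 in WT. SPNCRNA.324, 101 bases before mei3, had 6.85 and 6.01, against 1.20 and 6.61 in WT. Both were below the filter.

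Per kb of annotated transcript, the members differed widely in level in growing WT cells. The order from the highest was pac2 (6392 and 6868 normalized counts per kb in the 2 WT libraries), pat1 (1092 and 1149), ste11 (785 and 758), omt3 (499 and 468), mei2 (488 and 455), sme2 (95.3 and 87.6) and mei3 (3.58 and 9.62). All neighbours in this order were separated by more than the spread of the 2 libraries except omt3 and mei2, which overlapped. The pac2 value is divided by the coding length alone and is therefore too high to the extent that the mRNA has UTRs. In the zfs1Δ mutant the means per kb were 10159 (pac2), 1251 (pat1), 103 (sme2), 60.4 (ste11), 38.3 (mei2), 11.8 (omt3) and 6.995 (mei3), so that sme2 then stood above ste11, mei2 and omt3.

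The Zfs1 IP addressed which of these transcripts travel with the Zfs1 protein. pat1, pac2 and ste11 were recovered far above their input level, while mei2, sme2 and omt3 were not called and mei3 was too weak to test. Thus 3 of the 6 members tested were called higher in the Zfs1 IP than in its input and none lower, where 9.6% of all 5929 transcripts were higher and 10.6% lower (limma, experiment as a block). These shares also moved with scaling, to 16% higher and 3.22% lower with equal totals and to 28.4% and 35.3% with median centring. Because the whole experiment 1 was shifted, with a median log2 IP/input ratio of -1.50 against 0.14 and 0.10 in experiments 2 and 3, each ratio is also given relative to the median of its own experiment.

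The pat1 mRNA had 5848, 6008 and 3329.6 normalized counts in the Zfs1 IPs, against 315, 309.8 and 224 in the Zfs1-TAP inputs. Every IP was far above every input, and the mean log2 ratio was 4.12 (SE 0.75, n = 3, adjusted p = 2.75e-06, limma), 37th from the highest of 5929. The 3 log2 ratios were 4.21, 4.27 and 3.89 as normalized, and 5.71, 4.13 and 3.79 relative to the median. Experiment 1 of pat1 thus stood apart only after the median was subtracted. The pac2 mRNA had 24212, 42391 and 22819 in the Zfs1 IPs, against 3516, 1141 and 1188 in the inputs. Every IP was again above every input, and the mean log2 ratio of 4.09 (SE 0.77, adjusted p = 7.22e-06, limma) ranked 41st, with 4.28, 5.07 and 4.16 relative to the median.

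The ste11 mRNA had 3005, 5735 and 2453 normalized counts in the Zfs1 IPs, against 582, 422 and 271 in the inputs. Every IP was above every input, and the mean log2 ratio was 3.10 (SE 0.75, n = 3, adjusted p = 8.26e-04, limma), with 3.87, 3.62 and 3.07 relative to the median. ste11 was thus called higher in the Zfs1 IP and lower in the zfs1Δ mutant, whereas pac2 was called higher in both comparisons. The mei2 mRNA had 516, 881 and 982 in the Zfs1 IPs, against 447, 417 and 328 in the inputs. Its IPs also lay above all inputs, but the mean log2 ratio of 0.95 was not called (95% interval -0.43 to 2.34, adjusted p = 0.344, limma). Within experiments, the ste11 ratio exceeded that of mei2 by 2.16, 2.69 and 1.60 on the log2 scale, a difference to which library scaling does not contribute, whereas their zfs1Δ/WT ratios differed by 0.07 and -0.19.

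The non-coding transcripts had small ratios. omt3 had 36.9, 119 and 55.9 normalized counts in the Zfs1 IPs, against 47.2, 38.8 and 28.8 in the inputs, and its groups overlapped (log2 0.73, 95% interval -0.88 to 2.33, adjusted p = 0.547, limma). sme2 had 98.0, 23.1 and 11.1 in the Zfs1 IPs, against 69.1, 11.04 and 6.27 in the inputs. Experiment 1 was the highest for sme2 in both groups, and the log2 ratio was 0.74 (95% interval -1.15 to 2.64, adjusted p = 0.608, limma). mei3 had 7.38, 5.05 and 2.70 in the Zfs1 IPs, against 3.47, 1.63 and 2.14 in the inputs, and was not tested.

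The calls depended on which experiments entered. With experiment 1 left out, mei2 and omt3 were called as well (log2 1.33, adjusted p = 3.86e-07, and 1.26, adjusted p = 0.00324, limma). In that fit 36.2% of all transcripts were called higher and 28% lower. Without experiment 2 or without experiment 3 no member was called, although the log2 ratios of pat1, pac2 and ste11 stayed between 2.77 and 4.24. Their adjusted p-values were then 0.2 and 0.428 (pat1), 0.33 and 0.571 (pac2) and 0.604 and 0.791 (ste11). The shares of all transcripts called in these 2 fits are not given here. Over all alternatives together, 10 to 2134 transcripts were called higher in the Zfs1 IP, against 569 in the fit reported. Median centring also called mei2 (1.18, adjusted p = 0.00279, limma), beside 28.4% of all transcripts higher.

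None of the 7 members was called in the mock-control GFP IP, and over all 5887 transcripts tested 18.4% were called in either direction (limma, experiment as a block). At an unadjusted p under 0.05, mei2 (0.035), pat1 (0.0199) and pac2 (0.0128) were past the threshold, all with small positive ratios. pat1 had 296, 550.1 and 451 normalized counts in the GFP IPs, against 217, 307 and 168 in the GFP-TAP inputs (log2 0.90, adjusted p = 0.0864). pac2 had 1208, 2738 and 1424 in the GFP IPs, against 1525, 854 and 763 in the inputs (log2 0.75, adjusted p = 0.0631). The pac2 groups overlapped through experiment 1, and without experiment 1 pac2 was called (1.29, adjusted p = 0.00902), beside 7.97% of all transcripts higher and 4.93% lower. ste11 had 562, 1134 and 742 in the GFP IPs, against 477, 721 and 567 in the inputs (log2 0.43, adjusted p = 0.376).

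mei2 was present at a higher level in the GFP IPs than in the Zfs1 IPs, with 1326, 1507 and 1379.8 normalized counts, against 927, 877 and 899.7 in the GFP-TAP inputs (log2 0.64, adjusted p = 0.126, limma). Its GFP IPs lay above all GFP-TAP inputs, as its Zfs1 IPs did above the Zfs1-TAP inputs. omt3 had 104, 185 and 208 in the GFP IPs, against 164, 307 and 424 in the inputs, and was lower in the IP of every experiment (log2 -0.80, adjusted p = 0.191). sme2 had 21.7, 49.0 and 2.24, against 48.4, 21.4 and 22.6 in the inputs (log2 -0.94, adjusted p = 0.56), with overlapping groups. mei3 had 1.85, 12.7 and 45.4 in the GFP IPs, against 1.28, 2.29 and 1.45 in the inputs, and passed the filter here only through the GFP IP of experiment 3 (log2 2.21, adjusted p = 0.415).

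A contrast fitted to the 12 RIP-Seq libraries (limma) tested whether the Zfs1 enrichment differed from the GFP enrichment, and it called 9.86% of 5933 transcripts higher with Zfs1 and 11.3% lower. With equal totals these shares were 17.1% and 1.74%. pac2, pat1 and ste11 were enriched more with Zfs1, by 3.34 (SE 0.72, adjusted p = 1.65e-04), 3.22 (SE 0.74, adjusted p = 4.17e-04) and 2.67 (SE 0.72, adjusted p = 0.00351) on the log2 scale. In each of the 3 experiments the Zfs1 ratio of these 3 genes was above the GFP ratio. For mei2 the difference was 0.32 (95% interval -1.11 to 1.74, adjusted p = 0.791), for omt3 1.53 (-0.30 to 3.36, adjusted p = 0.236) and for sme2 1.69 (-0.92 to 4.29, adjusted p = 0.378). The omt3 difference was called with median centring (1.78, adjusted p = 0.0134), beside 20.3% of all transcripts higher and 26.6% lower. It was also called without experiment 1 (2.14, adjusted p = 0.0228), beside 19.4% higher and 15.3% lower. No member was called without experiment 2 or without experiment 3, where the lowest adjusted p among pac2, pat1 and ste11 was 0.0706. The shares of all transcripts called in these 2 fits are not given here. Over all alternatives together, 38 to 1437 transcripts were called higher with Zfs1, against 585 in the fit reported.

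**Figure D3:**
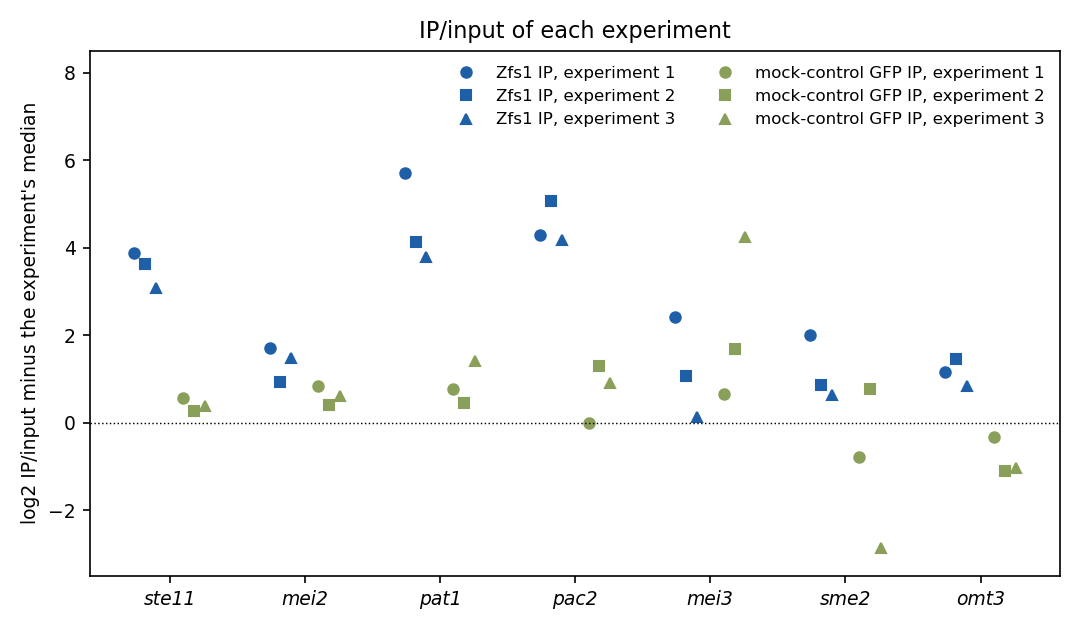
Log2 IP/input ratio of the 7 genes, less the median of the same experiment, for the Zfs1 IP (blue, left) and the mock-control GFP IP (green, right), with a symbol per experiment. All 3 Zfs1 points of ste11 (3.07 to 3.87), pat1 (3.79 to 5.71) and pac2 (4.16 to 5.07) lie above their GFP points, whereas the GFP point of mei3 in experiment 3 (4.24) is higher than any Zfs1 point of mei3.

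The inputs also allowed total RNA of the Zfs1-TAP and GFP-TAP strains to be compared. omt3 was lower in the Zfs1-TAP strain, and mei2 values were lower in every experiment. The strains differ in the tagged protein, the mating type and the leu1 and ura4 alleles, and these differences cannot be told apart. Of 5893 transcripts tested, 0.102% were called higher and 0.0679% lower in the Zfs1-TAP input (limma, no block), and omt3 was the member called.

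omt3 had 47.2, 38.8 and 28.8 normalized counts in the Zfs1-TAP inputs, against 164, 307 and 424 in the GFP-TAP inputs. Every Zfs1-TAP input was below every GFP-TAP input, and the mean log2 ratio was -2.85 (SE 0.64, n = 3 each, adjusted p = 0.0495, limma). The adjusted p was 2.37e-06 to 0.302 over the 9 alternatives without a left-out experiment, so this call is at the edge. mei2 had 447, 417 and 328 in the Zfs1-TAP inputs, against 927, 877 and 899.7 in the GFP-TAP inputs. The groups did not overlap and each ratio was at or below -1.05, but with a mean of -1.19 the difference was not called over all transcripts (adjusted p = 0.839, limma).

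For ste11 the inputs overlapped, with 582, 422 and 271 in the Zfs1-TAP strain and 477, 721 and 567 in the GFP-TAP strain (log2 -0.52, adjusted p = 0.839, limma). pac2 had 3516, 1141 and 1188 in the Zfs1-TAP inputs, against 1525, 854 and 763 in the GFP-TAP inputs, with overlap (log2 0.75, adjusted p = 0.839). pat1 (315, 309.8 and 224, against 217, 307 and 168) and sme2 (69.1, 11.04 and 6.27, against 48.4, 21.4 and 22.6) also overlapped, as did mei3 at 1.63 to 3.47 against 1.28 to 2.29. The median log2 ratio of all transcripts was 1.17 in experiment 1 and 0.09 and 0.02 in experiments 2 and 3. Not every member followed this shift, since the pat1 ratios were 0.54, 0.01 and 0.42.

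Without experiment 1, omt3 (-3.39, adjusted p = 0.00755), mei2 (-1.26, adjusted p = 0.00843) and ste11 (-0.92, adjusted p = 0.046) were called lower and pac2 higher (0.53, adjusted p = 0.0163) in the Zfs1-TAP input, beside 6.16% of all transcripts lower and 14.4% higher (limma). The same 4 genes were called in these directions in the zfs1Δ mutant, at -5.25, -3.61, -3.67 and 0.62, where 13.7% of all transcripts were lower and 30.9% higher. pat1 was called in the zfs1Δ mutant but not between the inputs. How many of all transcripts agreed in direction was not counted, and a link between the 2 comparisons was not tested. Between the inputs, no member was called without experiment 2 or without experiment 3, and the shares of all transcripts called in these 2 fits are not given here. The M-cell list summed to 1531 to 6101 in the Zfs1-TAP inputs and to 872 to 1426 in the GFP-TAP inputs, the P-cell genes to 128 to 555 and to 236 to 452. In the GFP-TAP inputs the M-cell sum was mostly mam1 (568 to 1079) and mam2 (296 to 329). The part of mating type in these differences was not tested.

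**Figure D4:**
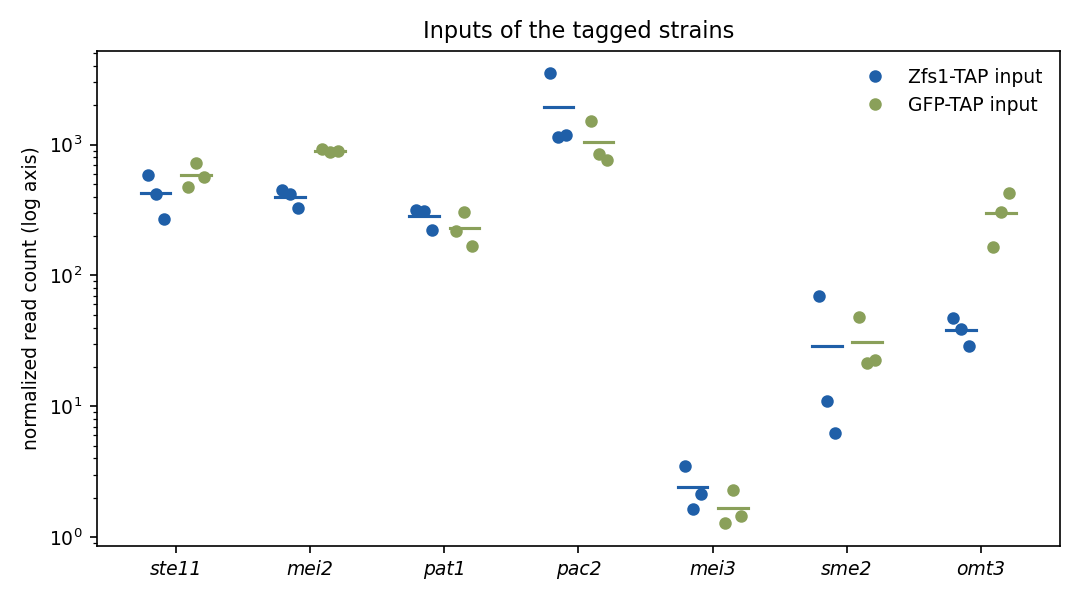
Normalized read counts on a log axis of the 7 genes in the inputs of the Zfs1-TAP strain (blue, left) and the GFP-TAP strain (green, right), 1 point per experiment and a line at the mean of 3. Among the 7 genes, the groups are apart only for mei2 (328 to 447 against 877 to 927) and omt3 (28.8 to 47.2 against 164 to 424). The share of all transcripts with groups apart was not counted.

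Other genes of the pathway were grouped into lists by function, and their counts are to be read against the shares of all transcripts called. For the fits without experiment 2 or without experiment 3 these shares are not given here, so losses of calls there cannot be set against them. In the zfs1Δ mutant 5 of 8 regulators of ste11 transcription or mRNA rose and 3 fell, beside 30.9% and 13.7% of all transcripts, with a median log2 ratio of 0.25 against 0.05 over all transcripts tested. The largest were msa1 (0.63), an RNA-binding repressor of sexual differentiation with 3704 and 3633 normalized counts in the zfs1Δ mutant against 2341 and 2415 in WT, and pcr1 (0.49), which encodes the partner of the bZIP factor Atf1, with 2373 and 2324 against 1647 and 1702. nrd1, another RNA-binding repressor, rose by 0.31, while atf1 (-0.27) and rst2 (-0.26) fell. With equal totals 4 rose and 3 fell, beside 18.9% and 31% of all transcripts. In the Zfs1 IP 4 of the 8 were called higher, beside 9.6% of all transcripts, and none lower, led by pcr1 (2.73), msa1 (2.32) and nrd1 (2.24), with a median of 1.83 against -0.44 over all transcripts, and of these pcr1 was also called against the GFP enrichment (3.46, adjusted p = 1.56e-04, limma). The GFP IP itself was called higher for msa1 (1.24) and nrd1 (0.84), beside 11.1% of all transcripts. Without experiment 1, 7 of the 8 were called higher in the Zfs1 IP, beside 36.2% of all transcripts, and without experiment 2 or without experiment 3 none was.

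Other genes that Ste11 turns on had smaller ratios than mei2 in the zfs1Δ mutant. Of 15 listed, 12 were tested, of which 4 fell and 3 rose, beside 13.7% and 30.9% of all transcripts, with a median log2 ratio of -0.05. The pheromone-pathway genes ste4 (-1.54, with 205 and 178 normalized counts in the zfs1Δ mutant against 581 and 539 in WT), spk1 (-0.99, 60.5 and 82.1 against 157 and 126) and gpa1 (-0.82, 522 and 521 against 863 and 987) were the largest. ste4 encodes an adaptor, spk1 a MAP kinase and gpa1 a G-protein α-subunit. The protease gene sxa1 (0.35) and the ABC transporter gene mam1 (0.22) rose. With equal totals 6 fell and 2 rose, beside 31% and 18.9% of all transcripts. In the Zfs1 IP 4 of 13 were called higher, beside 9.6% of all transcripts, among them sxa1 (2.80) and spk1 (2.79), and 1 lower (mfm2, -2.004), with a median of 1.1. Without experiment 1, 8 were called higher, beside 36.2% of all transcripts, and none was without experiment 2 or without experiment 3. Against the GFP enrichment, sxa1 (2.42) and mam1 (2.72) were called higher, beside 9.86% of all transcripts. The mating-pathway gene ste6, which was listed at 0 in 2 of the 3 GFP-TAP inputs, was called lower (-4.92, adjusted p = 0.00217, limma), beside 11.3%. The higher calls of this contrast were lost without experiment 2 or without experiment 3.

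Among 6 partners of Mei2 and Pat1, 4 rose slightly in the zfs1Δ mutant, beside 30.9% of all transcripts, and none fell, with a median log2 ratio of 0.26. These were rhp6 (0.33) and ubr11 (0.23), of the ubiquitin pathway that degrades Mei2, mip1 (0.30), whose product binds Mei2 and Ste11, and the 14-3-3 gene rad25 (0.29). With equal totals 4 rose and 1 fell, beside 18.9% and 31% of all transcripts. In the Zfs1 IP the 14-3-3 genes rad24 (-2.39) and rad25 (-2.10) were called lower, beside 10.6% of all transcripts. This direction is opposite to that of pat1, and the calls were lost with equal totals, without experiment 2 and without experiment 3.

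Of the 10 genes of the Mmi1 elimination machinery, 3 rose by at most 0.17 in the zfs1Δ mutant (red1, red5 and ars2, annotated as pir2), a share near the 30.9% of all transcripts. With equal totals none rose and 2 fell, beside 18.9% and 31% of all transcripts. mmi1 itself had 6369 and 6317 normalized counts in the zfs1Δ mutant, against 6335 and 6254 in WT (log2 0.01, adjusted p = 0.891, limma). In the Zfs1 IP red5, which encodes a zinc-finger protein of this machinery, was called higher (3.02, adjusted p = 0.00145), except without experiment 2 or without experiment 3, and the median of the list was -0.61. It was the only call among the 10, beside 9.6% of all transcripts.

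The last list holds meiotic mRNAs that Mmi1 removes in growing cells. Of 10 listed, 9 were tested in the Zfs1 IP, where 6 were called higher, beside 9.6% of all transcripts, and none lower, with a median log2 ratio of 2.23 against -0.44 over all transcripts. mug9, a meiotically upregulated gene, had 706, 3093 and 1267 normalized counts in the Zfs1 IPs, against 31.3, 21.0 and 23.8 in the inputs (log2 5.75, adjusted p = 8.25e-14, limma). spo5, which encodes an RNA-binding protein of meiosis, had 986, 1747 and 1160.4, against 179, 47.7 and 46.1 (4.08, adjusted p = 3.51e-07). mei4, the forkhead transcription factor of mid-meiosis, had 728, 2109 and 1103, against 233, 97.7 and 91.0 (3.22, adjusted p = 1.4e-04). Without experiment 1 all 9 were called higher, beside 36.2% of all transcripts, and without experiment 2 or without experiment 3, 1 was. The GFP IP was itself called higher for 3 of the 9, beside 11.1% of all transcripts, namely mug9 (2.14), mei4 (1.42) and rec8 (1.40). Those not called in the Zfs1 IP were rec8, crs1 and mug10. In the contrast with GFP 4 were called higher, beside 9.86% of all transcripts, including mug9 (3.61) and spo5 (3.35), whereas mei4 was not. This count was 6 without experiment 1, beside 19.4% of all transcripts, and 0 without experiment 2 or without experiment 3. In the zfs1Δ mutant 8 of the 10 were tested, and mei4 rose (0.39, 757 and 688 against 531 and 568 in WT) while mug8 fell (-0.17). These were 1 call in each direction, beside 30.9% of all transcripts higher and 13.7% lower.

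**Figure D5:**
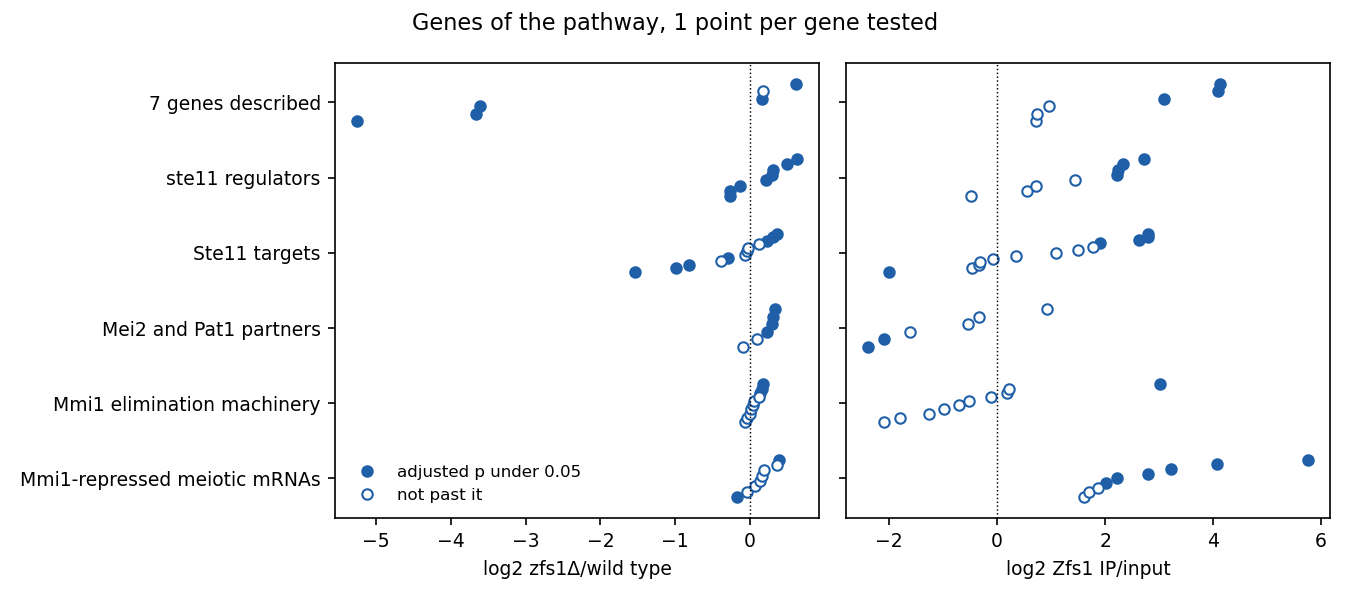
Log2 ratio of zfs1Δ to WT (left) and of Zfs1 IP to input (right) for the genes of each list, 1 point per gene tested, filled where the adjusted p was under 0.05 (limma). The low points of omt3, ste11 and mei2 (-5.25 to -3.61) in the left panel lie below every gene of the other lists, of which ste4 (-1.54) is the lowest, and mug9 (5.75) is the highest point in the right panel.

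The transcripts most like each member were sought over 8 log2 ratios (3 Zfs1 IP/input, 3 GFP IP/input and 2 zfs1Δ/WT) among 5083 transcripts tested in all of these comparisons, with the Euclidean distance as the measure. ste11 and mei2 had the same nearest transcript, the peptide transporter gene ptr2, at distances of 2.87 and 2.38, where the median distance to all transcripts was 8.31 and 6.27. The second nearest were mei2 for ste11 (3.82) and the retrotransposon Tf2-11 for mei2 (2.49), whose reads are shared with near-identical copies. The nearest of omt3 were mei2 (3.58) and mug14 (4.13). pat1 and pac2 had closer neighbours, wsc1 (0.91) and ubp11 (1.01) for pat1 and SPAC27E2.11c (0.92) and art1 (1.19) for pac2. Those of sme2 were pof4 (0.74) and SPNCRNA.1228 (1.43). The nearest transcripts of ste11, mei2 and omt3 were thus more distant than those of pat1, pac2 and sme2. The ratios share libraries, so these distances are a description.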

How the data were processed

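The authors depleted ribosomal RNA, sequenced paired ends with strand information, counted reads per transcript of a PomBase annotation with RSEM 1.1.19 and Bowtie 0.12.7, and normalized the counts with edgeR. The deposited signal values are these normalized counts (not whole numbers, and tables of the RIP-Seq and the RNA-Seq were normalized apart), so reads per library cannot be recovered and no counting interval was possible. Values below 1e-06 were taken as 0. From these values log2 of the normalized count + 1 was tested with limma 3.58.1 (R 4.3.3, empirical Bayes with a trend, Benjamini-Hochberg over all transcripts that averaged 1 CPM or more), as a count test needs reads. This scale understates changes of weak transcripts. Experiment was a block except between inputs. With 1 residual degree of freedom in the zfs1Δ comparison, and few elsewhere, the spread comes largely from other transcripts. The study describes the experiments as biological repeats.

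The members and lists were chosen with earlier results of these data known. Text names all members, their neighbours within 500 bases, at most 3 called genes per list and comparison with the largest change, the 2 nearest transcripts of each member, and genes that check the strains; lower-ranked list genes named beside these, and mmi1, were added after their values were seen. IDs were matched to RefSeq names for 6859 of 7018. The mat1-Pc and mat1-Pi IDs were not matched and are not analysed here. The fits of the zfs1Δ comparison and of the Zfs1 IP were tested on simulated data. The simulation had more even library totals than the RIP-Seq and no shift between experiments, so it does not cover the experiment 1 shift. Alternatives were other pseudocounts (0.5 and 8), filters (none and 10 CPM), scalings, no trend, the block, and each experiment left out.

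The experiment numbers paired the Zfs1 IP with its input, since they come from 1 extract, and deviations from the group means correlated by 0.23 to 0.48 across transcripts. For the GFP IP the values were 0.098 to 0.28, for the inputs of the strains 0.24 to 0.66, and for zfs1Δ against WT -0.07.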

Additional observations from a re-analysis of the deposited data

Results flagged for a closer look

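For 3 genes the enrichment in the Zfs1 IP differed from that in the mock-control GFP IP in a test of the difference itself (limma contrast over 12 libraries). This contrast called 9.86% of 5933 transcripts higher with Zfs1 and 11.3% lower. The difference on the log2 scale was 3.34 for pac2, 3.22 for pat1 and 2.67 for ste11, with adjusted p-values of 1.65e-04, 4.17e-04 and 0.00351, and the Zfs1 ratio was the higher one in 3 of 3 experiments for each gene. The pac2 difference was 3.24 without experiment 2 and 3.33 without experiment 3, that of pat1 3.11 and 3.60, and that of ste11 2.46 and 2.62. None of the 3 was called with either experiment left out, and the shares of all transcripts called in these fits are not given here. No group held enough libraries for a check of single outlying libraries.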

How the results depend on the processing

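The number of members called in the zfs1Δ mutant was 5 and became 4 under 5 of 9 alternatives, through pat1 in 4 of them and through omt3, which is not tested at 10 CPM, in the other; leaving out an experiment gave ratios with no test. In the Zfs1 IP 3 members were called, 4 with median centring or equal totals without ribosomal RNA (mei2 added), and 0 to 5 when an experiment was left out. Under these 2 scalings 28.4% and 25.9% of all transcripts were called higher. In the GFP IP none was called, and 0 to 1 when an experiment was left out. With equal totals after removal of ribosomal RNA, a scaling chosen after seeing the data, 1 was called (omt3, lower), beside 15% of all transcripts lower. The contrast gave 3, 4 with median centring or equal totals without ribosomal RNA (omt3 added), and 0 to 4 when an experiment was left out. Under these 2 scalings 20.3% and 24.2% of all transcripts were called higher with Zfs1. Between the inputs 1 member was called, and 0 with a pseudocount of 8, no filter, equal totals without ribosomal RNA, median centring or no trend, and 0 to 4 when an experiment was left out. The cause of these shifts was not tested.

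With the replicate block removed, 5, 3, 0 and 3 members were called in the zfs1Δ mutant, the Zfs1 IP, the GFP IP and the contrast, and with the block added between the inputs 1 was, so that the block changed no count of members.

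Counts over all transcripts moved more. Over the alternatives they were 981 to 1746 higher (1600 as reported) and 507 to 1683 lower (710) in the zfs1Δ mutant, 10 to 2134 (569) and 27 to 2340 (631) in the Zfs1 IP, 2 to 652 (651) and 10 to 883 (430) in the GFP IP, 38 to 1437 (585) and 37 to 1580 (671) in the contrast, and 4 to 849 (6) and 1 to 363 (4) between the inputs. The values of mei3 and sme2 were low, at 1.28 to 3.47 and 6.27 to 69.1 normalized counts in the inputs.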
